A study of Mus musculus with 55 samples.

Results

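Primary mouse neurons sampled 45 min after the addition of KCl were compared with unstimulated (basal) neurons of the same age. The members were chosen by their labels alone: the 2 samples labelled KCl 45 min and the 3 basal samples at 0 min, which are 5 of the 27 samples of the stimuli experiment and 5 of 55 in the series. The cells came from the cortex and hippocampus of CD1 mouse embryos of mixed sex and were counted as 21 days in vitro (21DIV). KCl was added to 55 mM and stayed in the medium until lysis, with no silencing beforehand, while basal wells got mock handling without drug. Neither group had been in tetrodotoxin (TTX), the sodium channel blocker used elsewhere in the experiment. For comparison, 2 samples were taken after 15 min of KCl, 2 after 180 min of KCl, and 2 after 45 min in bicuculline (Bic) at 50 µM. The sources do not say whether samples of a group came from separate cultures or animals. The p-values therefore rest on a spread that may be technical, taken within the groups of all 27 samples of the stimuli experiment.

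High extracellular potassium depolarises the neuronal membrane directly and opens voltage-gated calcium channels. Calcium entry then acts through calmodulin-dependent and MAP kinases on transcription factors already present, such as CREB, SRF and MEF2, which turn on immediate-early genes without new protein synthesis. Their products, many of them transcription factors, act on later genes for secreted and synaptic proteins. Bicuculline reaches the same genes by another way, since it blocks GABA-A receptors and lets the network fire in synaptic bursts.

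The libraries were made from the 3′ ends of polyadenylated RNA, and the deposited table gave counts per transcript. The 5 libraries held 2432282 to 3476123 counts on genes with a symbol, with a median of 2691387. Levels are given as CPM, counts scaled to a common library size after TMM normalisation, and each gene is represented by the transcript with the most counts. A differentially expressed gene (DEG) had an adjusted p under 0.05 by edgeR's quasi-likelihood test and moved 1.5-fold or more, among 12027 genes tested. The letter that opens the well code in the column headers was B in both KCl 45 min samples and basal sample 5, and A in basal samples 1 and 2. What the letter stands for is not given in the sources used here.

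Markers of neurons and of astrocytes were both present. The 8 pan-neuronal markers summed to 4685 to 4886 CPM in basal and 5549 to 5602 CPM in KCl 45 min samples. The 12 astrocyte markers summed to 2627 to 3232 CPM in basal and 4383 to 4386 CPM in KCl 45 min samples, so that these groups did not overlap. Inhibitory neuron markers also did not overlap, at 4507 to 5447 CPM against 5810 to 5907 CPM, nor did the 7 excitatory neuron markers, at 1169 to 1355 CPM against 1430 to 1447 CPM. The 5 markers of cycling cells summed to 35.4 to 50.2 CPM against 66.1 to 66.6 CPM. Oligodendrocyte lineage markers overlapped, at 818 to 1264 CPM against 1099.9 to 1165 CPM, as did the 6 fibroblast and meningeal markers, at 108 to 201 CPM against 168 to 178 CPM. Microglial markers stayed between 6.33 and 9.25 CPM in sum, with C1qb and Itgam at 0 in all 5 samples, endothelial and mural markers between 9.41 and 17.4 CPM, and choroid plexus and ependymal markers between 4.80 and 9.43 CPM. In bulk RNA, more cells of a type and more RNA per cell cannot be told apart.

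After 45 min of KCl, 92 DEGs separated the groups, or 0.765% of the genes tested. Of these, 73 were higher than in basal samples (0.607%) and 19 were lower (0.158%). The changes were moderate: 33 of the 73 higher genes and 11 of the 19 lower genes exceeded 2-fold, and 3 and 1 exceeded 4-fold. The median log2 fold change was 0.94 over the higher genes and -1.06 over the lower genes, against -0.01 over all genes tested. In all 92 DEGs every KCl 45 min sample lay on one side of every basal sample, which was also so for 31.4% of all genes tested. Of the genes tested, 1342 had an unadjusted p under 0.05 and 104 an adjusted p under 0.05.

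**Figure D1:**
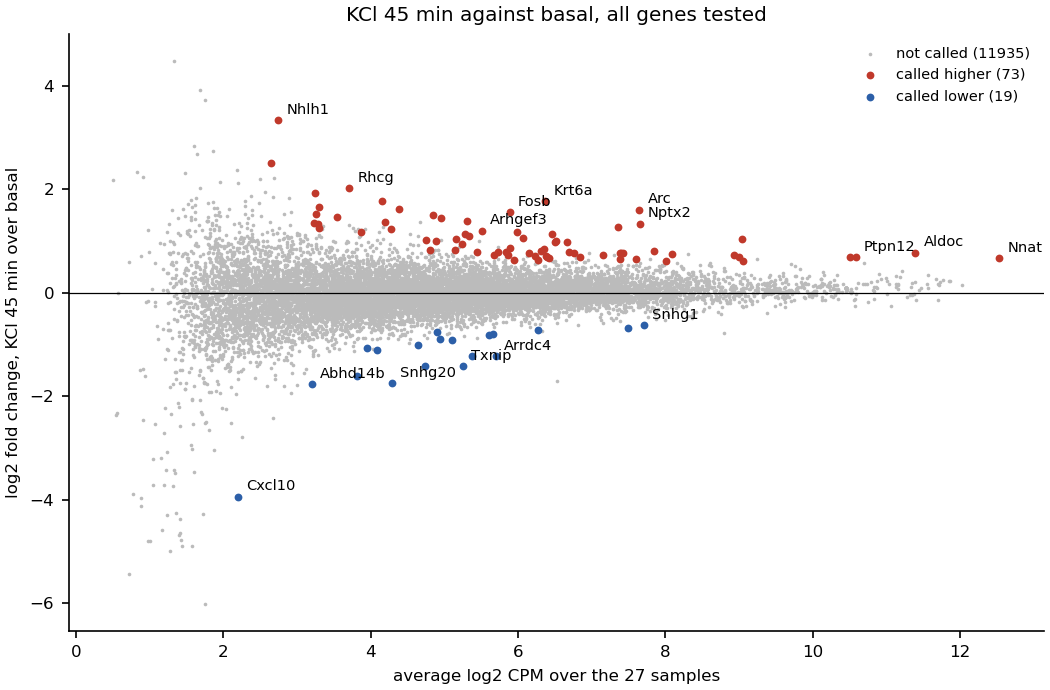
Log2 fold change of KCl 45 min over basal (vertical axis) against the average log2 CPM over the 27 samples (horizontal axis) for each of the 12027 genes tested. Red points are the 73 DEGs that were higher, blue points the 19 that were lower and grey points the other genes; most red points lie between 0.6 and 2 on the log2 scale, and Arc, Nptx2, Ptpn12 and Nnat stand apart from the grey points at high expression.

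The count of DEGs rested on single libraries. It rose to 108 without basal sample 2 and fell without any of the others. It was 8 without KCl 45 min sample 1, 46 without KCl 45 min sample 2, 30 without basal sample 1 and 37 without basal sample 5. It was 50 with basal sample 5 as the only basal sample, the one that shares the well letter of the KCl 45 min samples.

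Of the 92 DEGs, 5 were called in the main test and in all 17 alternatives: Arc, Fosb, Nptx2, Arhgef3 and Ptpn12. Arc (chr15:74669081-74672570, GRCm38), the cytoskeleton-associated protein that drives removal of AMPA receptors from synapses, measured 25.5, 35.7 and 32.2 CPM in the basal samples and 81.2 and 108 CPM in the KCl 45 min samples. The lowest KCl sample lay well over the highest basal sample, and the rise was 3.05-fold (log2 fold change 1.61 ± 0.19, adjusted p = 1.87e-06). Fosb (chr7:19302696-19310118), a subunit of the AP-1 transcription factor, stood at 15.5, 17.9 and 18.2 CPM in basal and 49.7 and 50.8 CPM in KCl samples, with very close replicates in both groups (1.55 ± 0.23, adjusted p = 2.71e-04). Nptx2 (chr5:144545887-144557478), a secreted pentraxin that clusters AMPA receptors at synapses, measured 78.2, 147 and 80.7 CPM against 228 and 286 CPM. Basal sample 2 was the highest of the basal samples for this gene, and still below both KCl samples (1.34 ± 0.21, adjusted p = 3.20e-04).

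The remaining pair, Arhgef3 and Ptpn12, fell outside the rule for named genes and was singled out after the values were seen. Arhgef3 (chr14:27114461-27403916), a guanine nucleotide exchange factor, measured 27.2, 31.6 and 31.1 CPM in basal and 71.9 and 65.2 CPM in KCl samples (1.20 ± 0.19, adjusted p = 3.20e-04). Ptpn12 (chr5:20986645-21055911), a protein tyrosine phosphatase, was an abundant transcript with a smaller change, from 1035, 1218 and 997 CPM to 1658 and 1817 CPM (0.68 ± 0.12, adjusted p = 0.00102). Baz1a, a subunit of chromatin remodelling complexes, and Rhcg, an ammonium transporter, were the other two DEGs called whichever single sample was left out. Baz1a measured 47.6, 33.1 and 61 CPM in basal and 100.1 and 97.4 CPM in KCl samples (1.06 ± 0.18, adjusted p = 9.22e-04).

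Rhcg was also the largest rise among DEGs with an average log2 CPM of at least 3, at 4.01, 10.05 and 4.55 CPM in basal and 27.4 and 22 CPM in KCl samples (2.02 ± 0.30, adjusted p = 2.71e-04). It was followed by the keratin Krt73 (1.92 ± 0.47 on the log2 scale), the keratin Krt6a (1.77 ± 0.31), the matrix glycoprotein Tnn (1.77 ± 0.29), the long non-coding RNA Gm41127 (1.65 ± 0.34) and Rprml (1.61 ± 0.31). Krt6a rose from 10.9, 16.7 and 11.8 CPM to 46.7 and 42.3 CPM, and shares much of its sequence with a neighbouring keratin gene, so its counts are uncertain. Bmp2, a secreted ligand of the TGF-beta family, rose from 16.3, 13 and 16.7 CPM to 45.6 and 38.5 CPM (1.45 ± 0.23, adjusted p = 3.20e-04). Smad7, an intracellular inhibitor of that pathway, measured 3.15, 6.70 and 3.41 CPM against 12.2 and 13.1 CPM (1.53 ± 0.39, adjusted p = 0.0443). Marchf11, a ubiquitin ligase, closed the group of the 12 largest rises together with Egr3, described with the transcription factors (1.46 ± 0.34, adjusted p = 0.0225). Of the 17 alternatives, Smad7 was called in 7, Krt73 and Marchf11 in 8 each, Gm41127 in 11 and Tnn in 13. Rprml and Egr3 were called in 14 each, Krt6a and Bmp2 in 15 each, and Rhcg in 16. Smad7, Krt73 and Marchf11 were each called in 1 of the 5 that left out a sample. DESeq2 did not call Rhcg, Krt73, Gm41127, Smad7 or Marchf11. Below the expression limit, Nhlh1 had 1, 3 and 3 counts in basal and 33 and 11 in KCl samples, and Pbk had 3, 4 and 2 against 21 and 10, both named after their values were seen.

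**Figure D2:**
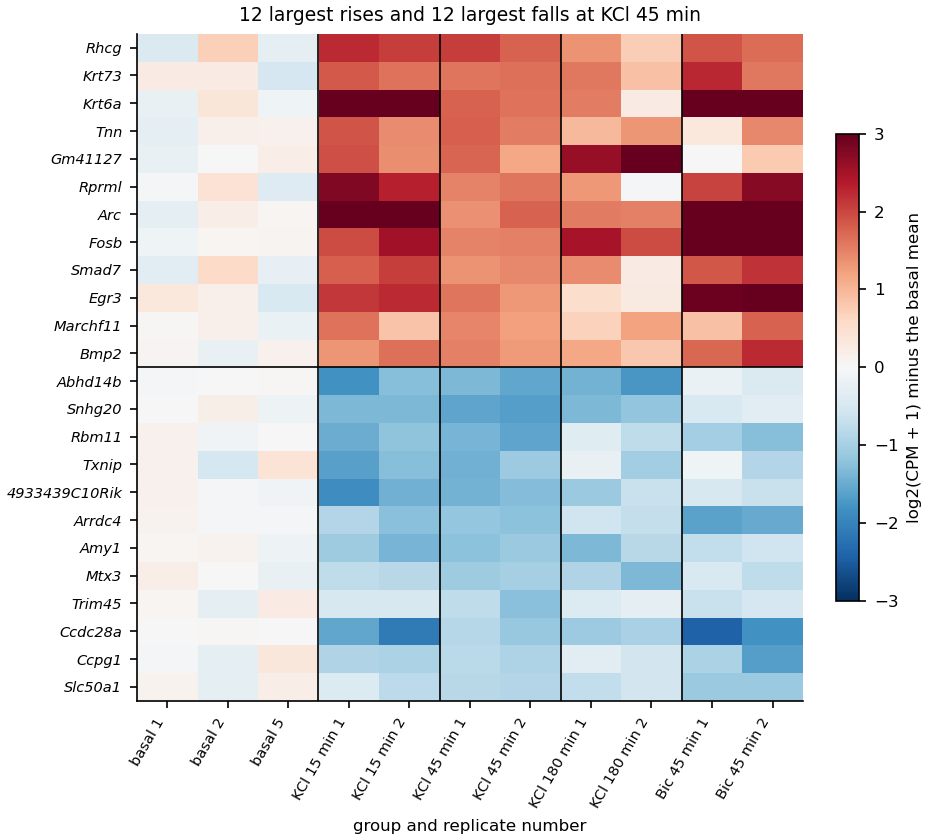
Heat map of the 12 largest rises (top) and 12 largest falls (bottom) at KCl 45 min, 1 column for each basal, KCl 15 min, KCl 45 min, KCl 180 min and Bic 45 min sample. Colour gives log2(CPM + 1) minus the mean of the basal samples and is cut at -3 and 3; both KCl 45 min columns lie on one side of the 3 basal columns in every gene shown, because the genes were chosen in that contrast.

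Among the inducible transcription factors, 25 of 27 listed genes were tested, 5 rose and none fell, against the 0.765% called among all genes. Their median log2 fold change was 0.38, and 19 of the 25 were above 0. The 5 were Fosb, its AP-1 relative Fosl2, the zinc finger factor Egr3, the neuron-specific factor Npas4 and the orphan nuclear receptor Nr4a1. Egr3 measured 13.2, 11.5 and 7.20 CPM in basal and 33.7 and 27.1 CPM in KCl samples (1.49 ± 0.30, adjusted p = 0.00598). Nr4a1 moved from 17.2, 19 and 18.6 CPM to 36.3 and 38.1 CPM (1.03 ± 0.22, adjusted p = 0.0136), and Fosl2 from 60.7, 76.7 and 86.8 CPM to 145 and 151 CPM (0.99 ± 0.18, adjusted p = 0.00239). Npas4, which is induced by calcium in neurons and little by other signals, was at 81.4, 67.4 and 58 CPM in basal and 101 and 135 CPM in KCl samples (0.77 ± 0.16, adjusted p = 0.00837). KCl sample 2 stood further from the basal samples than KCl sample 1, and neither overlapped them.

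Several genes most used as markers of neuronal activity did not pass the test at 45 min. Fos, the partner of Jun in AP-1, measured 37.5, 48 and 51.2 CPM in basal and 62.6 and 74.1 CPM in KCl samples, without overlap (0.59 ± 0.21, adjusted p = 0.248). Egr1, a zinc finger factor, measured 69.9, 76.3 and 62.5 CPM against 83.4 and 85.1 CPM (0.28 ± 0.20, adjusted p = 0.667), and Junb 25.8, 23.4 and 30.3 CPM against 38.2 and 29.2 CPM, with KCl sample 2 inside the basal range (0.35 ± 0.25, adjusted p = 0.641). Bdnf, the neurotrophin, was at 647, 797 and 413 CPM against 900.3 and 1054 CPM, a difference of 0.66 ± 0.18 on the log2 scale with an adjusted p of 0.0736. Homer1, a postsynaptic scaffold, was at 179.9, 193 and 200.1 CPM against 258 and 267 CPM (0.46 ± 0.14, adjusted p = 0.143). Nr4a3, the relative of Nr4a1, differed by 0.46 ± 0.13 (adjusted p = 0.0955). Egr2 had at most 1 count in any of the 5 samples and was not tested.

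The windows around the starts of Fosb, Nr4a1 and Npas4, which were among the called transcription factors, are shown as examples picked by hand. Of the 17 alternatives, Fosb was called in all, Npas4 in 12 and Nr4a1 in 10. Whether CREB acted on these genes was not tested. Each runs from 250 bases before to 50 bases after an annotated start in RefSeq for GRCm38.p6, 5′ to 3′ on the strand of the gene, and capitals mark TGACG, the CREB half-site, or its reverse complement CGTCA. The windows lie at chr7:19309996-19310295 on the minus strand, chr15:101266596-101266895 on the plus strand and chr19:4989922-4990221 on the minus strand.
Fosb: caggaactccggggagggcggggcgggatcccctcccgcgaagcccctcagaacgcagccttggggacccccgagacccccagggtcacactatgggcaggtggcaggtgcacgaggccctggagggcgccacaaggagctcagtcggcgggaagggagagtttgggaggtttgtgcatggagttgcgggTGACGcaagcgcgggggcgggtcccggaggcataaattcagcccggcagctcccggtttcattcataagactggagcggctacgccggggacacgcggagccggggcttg
Nr4a1: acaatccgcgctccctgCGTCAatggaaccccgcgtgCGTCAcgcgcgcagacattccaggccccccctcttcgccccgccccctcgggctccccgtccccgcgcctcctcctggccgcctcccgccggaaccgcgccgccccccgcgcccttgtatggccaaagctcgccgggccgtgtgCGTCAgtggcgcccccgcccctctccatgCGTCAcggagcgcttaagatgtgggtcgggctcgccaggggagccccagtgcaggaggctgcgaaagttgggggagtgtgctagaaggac
Npas4: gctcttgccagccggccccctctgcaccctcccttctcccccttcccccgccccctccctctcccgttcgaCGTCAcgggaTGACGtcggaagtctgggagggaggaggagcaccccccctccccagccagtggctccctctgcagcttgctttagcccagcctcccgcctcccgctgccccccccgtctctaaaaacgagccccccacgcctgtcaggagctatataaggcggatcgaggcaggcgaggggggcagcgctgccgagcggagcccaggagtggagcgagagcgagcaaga

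The Fosb window held 1 such half-site, the Nr4a1 window 4 and the Npas4 window 2. Over all higher DEGs the half-site was not common: it stood in 12 of 70 windows (17.1%), against 31% of the windows of all genes tested and 20.8% of all 32851 promoter windows. The full palindrome TGACGTCA, which contains both half-sites, was in 2 of the 70 windows (2.86%), against 3.13% for all genes tested and 1.79% for all promoters. TATAAA was in 8 of the 70 (11.4%), against 7.19% and 13.6%. The AP-1 motif TGANTCA was in 3 (4.29%), against 4.90% and 7.81%, and the serum response element core and the EGR motif GCGTGGGCG in 1 each (1.43%), against 1.23% and 1.15% of the windows of all genes tested. All motifs were read on both strands. The windows covered 54 of the 73 higher DEGs and 9599 of the genes tested.

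The synaptic and secreted effectors moved most often among the 19 gene lists. Of 21 tested, 6 rose and none fell, against 0.607% called higher among all genes tested, and the median log2 fold change was 0.46. These were Arc, Nptx2, Inhba, Ptgs2, Sgk1 and Fbxo33. Inhba, the subunit of activin A, measured 20.9, 36.8 and 19.3 CPM in basal and 68.9 and 46.2 CPM in KCl samples (1.18 ± 0.25, adjusted p = 0.0104). Ptgs2, the inducible cyclooxygenase, measured 54.2, 79.3 and 43.2 CPM against 119 and 113 CPM (0.98 ± 0.24, adjusted p = 0.0305). The kinase Sgk1 was at 291, 414 and 299 CPM against 566 and 543 CPM (0.73 ± 0.17, adjusted p = 0.0244), and the F-box protein Fbxo33 at 59.6, 56.2 and 59.1 CPM against 87.1 and 94.4 CPM (0.64 ± 0.15, adjusted p = 0.0285). For Inhba, Ptgs2 and Nptx2 basal sample 2 was the highest basal sample. Of the 17 alternatives, Fbxo33 was called in 8, Ptgs2 and Sgk1 in 9 each and Inhba in 12. Each of these was lost without basal sample 1 and also without basal sample 5. Without KCl 45 min sample 1, 2 genes of each of these lists were still called, and without basal sample 5 also 2 of each. With basal sample 5 as the only basal sample, 3 transcription factors and 5 effectors were called.

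The signalling feedback inhibitors, which switch off MAP kinase and calcium signals, had 1 call in 21 tested, against the 0.765% called among all genes. Dusp6, the phosphatase of ERK, rose from 80.8, 87.5 and 70.1 CPM to 131 and 122 CPM (0.67 ± 0.17, adjusted p = 0.0418). It was called in 9 of the 17 alternatives, and in 1 of the 5 that left out a sample, and under most of those that lost it the list held 0 calls. Spry2, an inhibitor of receptor tyrosine kinase signalling, was not called, at 44.7, 32.7 and 29.6 CPM against 49.7 and 59.7 CPM (0.60 ± 0.20, adjusted p = 0.188), nor was the ERK phosphatase Dusp4 (0.69 ± 0.31, adjusted p = 0.385) or Rgs2, a regulator of G-protein signalling (0.37 ± 0.16, adjusted p = 0.357). None of the 10 tested genes of the GADD45, BTG and IER group passed, although Gadd45g, a stress sensor, differed by 0.73 ± 0.19 (adjusted p = 0.0630). Btg2, an antiproliferative factor, lay at 27.5, 37.6 and 42.1 CPM in basal and 24.1 and 20.3 CPM in KCl samples (-0.67 ± 0.22, adjusted p = 0.194).

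Of the 36 tested potassium channel and sodium-potassium pump genes, 1 rose, against the 0.765% called among all genes, and 29 lay above 0, with a median log2 fold change of 0.24 against -0.01 over all genes tested. Kcnj10, the inward rectifier through which astrocytes take up potassium, rose from 58.7, 75.5 and 39.4 CPM to 157 and 124 CPM (1.28 ± 0.24, adjusted p = 0.00308). It was not called without KCl 45 min sample 1, with the replicate number of the titles as a block or with counts summed over transcripts, and the list then held 0 calls. The neuronal channels Kcnq3 (0.61 ± 0.18, adjusted p = 0.0977) and Kcna4 (0.56 ± 0.19, adjusted p = 0.216) were not called. None of 26 calcium and sodium channel and calcium handling genes was called (median 0.21), none of 27 glutamate receptor and scaffold genes (median 0.14) and none of 14 GABA receptor genes (median 0.07). Among these, the largest differences were those of Grm8, a metabotropic glutamate receptor, at 8.88, 6.70 and 3.03 CPM against 13.7 and 18.2 CPM (1.32 ± 0.37, adjusted p = 0.0831), and the NMDA receptor subunit Grin2c (1.27 ± 0.39, adjusted p = 0.143).

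Against basal, markers of astrocytes leaned upward, as did markers of several other cell types. Of the 12 astrocyte markers, 11 lay above 0, 2 rose and none fell, against 0.607% called higher among all genes tested. The marker below 0 was Aldh1l1, at -0.02. Their median log2 fold change was 0.40. Above 0 lay 7 of 8 pan-neuronal markers (median 0.30), 8 of 10 inhibitory neuron markers (0.28) and 4 of 7 excitatory neuron markers (0.23). So did 8 of 10 oligodendrocyte lineage markers (0.17), all 5 of cycling cells (0.58) and 1 of 2 microglial markers (-0.14). None of these other markers was called. Gfap, the intermediate filament of astrocytes, measured 102, 195 and 83 CPM in basal and 284 and 235 CPM in KCl samples (1.04 ± 0.23, adjusted p = 0.0139). Basal sample 2 was the nearest of the basal samples to the KCl samples. Aldoc, the astrocytic aldolase, was at 930.0, 950.4 and 840.4 CPM against 1538 and 1564 CPM (0.77 ± 0.14, adjusted p = 0.00300), the one call among 25 glycolysis and hypoxia genes tested. The glutamate transporter Slc1a2 passed the adjusted p and lay just under the fold limit (1.49-fold, 0.58 ± 0.14, adjusted p = 0.0358), while its relative Slc1a3 (0.28 ± 0.14, adjusted p = 0.443), the glial factor Sox9 (0.23 ± 0.16, adjusted p = 0.634) and the gap junction protein Gja1 (0.24 ± 0.30, adjusted p = 0.830) were not called. The part of astrocyte number or RNA content in the rise of Kcnj10, Gfap and Aldoc was not tested.

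The remaining lists held 3 calls, all rises, where 0.765% of all genes tested were called. Krt6a was the one call among 12 SRF and YAP targets (median 0.32), Smad7 among 11 Notch and BMP targets (median -0.12), and Tet3, an enzyme that oxidises methylated cytosine, among 22 CREB, CRTC and chromatin regulators (median 0.10). Tet3 measured 30.9, 29.4 and 34.1 CPM in basal and 50.04 and 55 CPM in KCl samples (0.74 ± 0.19, adjusted p = 0.0418). Tet3 was called in 7 of the 17 alternatives and in none of the 5 that left out a sample, Smad7 in 7 and 1, and Krt6a in 15 and 4, and each of these lists fell to 0 calls under some alternative. No gene was called among 12 heat shock chaperones (median 0.03), 16 clock genes (0.06), 18 ATF4 and ER stress genes (-0.08), 13 genes of AU-rich element binding and mRNA decay (0.11), 21 cholesterol synthesis genes (0.12) and 8 NF-kB and cytokine genes (-0.27). At the share called among all genes tested, most lists of these sizes would hold no call, so their lack of calls says little. The clock gene Per2 differed by 0.94 ± 0.30 with an adjusted p of 0.161, and the chaperone Hspa5 by -0.32 ± 0.14 with an adjusted p of 0.379. Of 8 tested genes that the study itself named as falling after stimulation, none was called, and all 8 lay below 0, with a median of -0.50. That list was drawn from the same samples and is no independent evidence of direction. The other lists were chosen with earlier results of these data known.

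**Figure D3:**
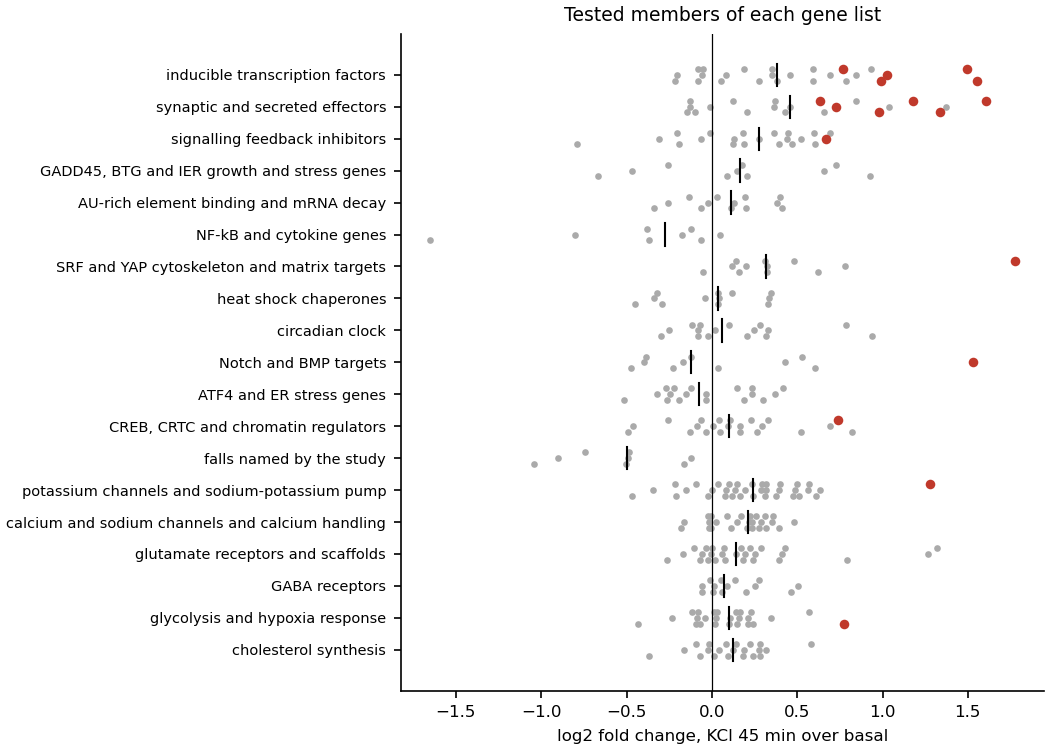
Log2 fold change of KCl 45 min over basal (horizontal axis) for the tested members of the 19 gene lists, 1 point for each gene. Red points are DEGs, grey points the other members and black bars the median of the list; the transcription factor and effector lists hold 5 and 6 red points, 6 other lists hold 1 each, and 11 lists hold none.

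The 19 lower DEGs included a pair of arrestin-family regulators of metabolism. Txnip, the inhibitor of thioredoxin that also restrains glucose uptake, measured 23.2, 14.1 and 28.1 CPM in basal and 7.04 and 9.32 CPM in KCl samples (-1.42 ± 0.34, adjusted p = 0.0288). Basal sample 2 was the lowest of the basal samples. Arrdc4, its arrestin-family relative, was tighter, at 86, 77.8 and 77.7 CPM against 35.2 and 33.9 CPM (-1.22 ± 0.23, adjusted p = 0.00339). Slc50a1, a sugar transporter, fell as well, from 40.1, 30.1 and 42.8 CPM to 20.4 and 19.9 CPM (-0.90 ± 0.22, adjusted p = 0.0288). So did the amylase gene Amy1 (-1.22 ± 0.22, adjusted p = 0.00189), whose counts are uncertain because amylase genes are near-identical copies. Of the 17 alternatives, Txnip was called in 11, Slc50a1 in 10, and Arrdc4 and Amy1 in 14 each. Txnip and Slc50a1 were lost without basal sample 1 and also without basal sample 5.

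The largest falls above the expression limit were those of the hydrolase Abhd14b (-1.76 ± 0.45, adjusted p = 0.0420), the non-coding RNA Snhg20, a host of small nucleolar RNA (-1.75 ± 0.33, adjusted p = 0.00308), and Rbm11, an RNA-binding regulator of splicing (-1.61 ± 0.29, adjusted p = 0.00184). Abhd14b was called in 7 of the 17 alternatives and in none of the 5 that left out a sample, while Snhg20 and Rbm11 were each called in 13 and 3. Snhg20 measured 21.8, 24.9 and 19.7 CPM in basal and 6.67 and 6.35 CPM in KCl samples. The non-coding RNA 4933439C10Rik, called in 16 of the 17 alternatives, fell from 49.9, 43.9 and 42.1 CPM to 16.3 and 17.8 CPM (-1.41 ± 0.21, adjusted p = 2.71e-04). Mtx3 of the mitochondrial import machinery (-1.11 ± 0.28, adjusted p = 0.0358), the ubiquitin ligase Trim45 (-1.06 ± 0.26, adjusted p = 0.0358), Ccdc28a (-1.01 ± 0.21, adjusted p = 0.0112) and the ER-phagy receptor Ccpg1 (-0.91 ± 0.20, adjusted p = 0.0179) completed the 12 largest falls, and Mtx3 too was lost whichever sample was left out. Outside the rule and named after its values were seen, the chemokine Cxcl10 had 29, 11 and 21 counts in the basal samples and 2 and 0 in the KCl samples.

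Many of the lower DEGs were short genes. Their median genomic span was 9.82 kb, and 11 of 19 spanned less than 10 kb and none more than 100 kb. The median was 24.3 kb over the 73 higher DEGs and 25.5 kb over all genes tested, of which 23.9% spanned less than 10 kb and 15.9% more than 100 kb. Of the higher DEGs 69 coded for protein and 4 were long non-coding RNAs, and of the lower DEGs 15 and 4. The Arrdc4 window is shown as an example from the falls, at chr7:68749189-68749488 on the minus strand of GRCm38.p6, with the serum response element core and the E-box CACGTG in capitals.
Arrdc4: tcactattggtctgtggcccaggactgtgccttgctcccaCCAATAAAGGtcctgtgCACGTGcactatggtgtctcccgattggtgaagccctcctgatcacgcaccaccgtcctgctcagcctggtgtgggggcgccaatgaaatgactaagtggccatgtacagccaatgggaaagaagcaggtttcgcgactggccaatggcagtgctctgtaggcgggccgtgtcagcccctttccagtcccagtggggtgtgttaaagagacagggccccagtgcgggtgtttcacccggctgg

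CACGTG, a motif added after the data were seen, stood in 2 of the 21 windows of lower DEGs (9.52%), those of Arrdc4 and Mtx3, in 5 of the 70 windows of higher DEGs (7.14%) and in 9.96% of the windows of all genes tested. The Txnip window held none of the motifs searched.

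How the response at 45 min related to the earlier time was tested directly between KCl 45 min and KCl 15 min samples. Of the genes tested, 50 differed (0.416%), 5 higher at 45 min (0.0416%) and 45 lower (0.374%). Activity-induced genes were lower at 45 min: Arc measured 325 and 399 CPM at 15 min and 81.2 and 108 CPM at 45 min (-1.94 ± 0.18, adjusted p = 3.72e-09), and Krt6a 435 and 464 CPM against 46.7 and 42.3 CPM (-3.33 ± 0.28, adjusted p = 2.00e-10). Fndc9 was at 134 and 127 CPM against 27.4 and 34.7 CPM (-2.07 ± 0.28, adjusted p = 1.77e-05), and the non-coding RNA 6530402F18Rik at 35.3 and 51.7 CPM against 10.7 and 13.1 CPM (-1.88 ± 0.33, adjusted p = 0.00178). In all 4 genes the later samples lay below both earlier ones. Sums of several lists of cell type markers, but not all, also were lower at 45 min than at 15 min. They were 66.1 to 66.6 CPM against 114.9 to 120.4 CPM for cycling cells. For the oligodendrocyte lineage they were 1099.9 to 1165 CPM against 1455 to 1605 CPM. For fibroblasts and meninges they were 168 to 178 CPM against 252 to 256 CPM, and for astrocytes 4383 to 4386 CPM against 4782 to 4809.8 CPM. The pan-neuronal sum was 5549 to 5602 CPM against 6067 to 6773 CPM, and the neurofilament gene Nefl, a member of that list, was itself called (-0.98 ± 0.17, adjusted p = 0.00178). Excitatory neuron sums overlapped, at 1430 to 1447 CPM at 45 min and 1330 to 1563 CPM at 15 min. So did inhibitory neuron sums, at 5810 to 5907 CPM and 5595 to 6230 CPM. The part of these cells in the difference between times was not tested.

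Of the effectors, 6 were lower at 45 min than at 15 min, among them Nptx2 (-1.40 ± 0.23, adjusted p = 4.20e-04), Inhba (-1.67 ± 0.24, adjusted p = 7.83e-05) and Ptgs2 (-1.13 ± 0.25, adjusted p = 0.0203), and of the inducible transcription factors 3, among them Npas4 at 205 and 208 CPM against 101 and 135 CPM (-0.81 ± 0.17, adjusted p = 0.0107). Not all induced genes differed between these times. Fosb (-0.79 ± 0.22, adjusted p = 0.118), Egr3 (-0.73 ± 0.28, adjusted p = 0.378), Nr4a1 (-0.16 ± 0.23, adjusted p = 0.893), Arhgef3 (-0.27 ± 0.19, adjusted p = 0.735), Bmp2 (-0.10 ± 0.23, adjusted p = 0.943), Rhcg (-0.23 ± 0.28, adjusted p = 0.873) and Kcnj10 (-0.08 ± 0.25, adjusted p = 0.959) did not pass the test. Among the 4 largest rises from 15 to 45 min, the purinergic channel P2rx3 measured 14.6, 13 and 10.6 CPM in basal samples, 5.28 and 1.56 CPM at 15 min and 10.7 and 13.5 CPM at 45 min (1.89 ± 0.43, adjusted p = 0.0258). The carbonic anhydrase Car12 measured 76.5, 69.96 and 88.3 CPM, 32.5 and 17.1 CPM and 59.3 and 63.9 CPM (1.34 ± 0.26, adjusted p = 0.00628). Smyd3, a methyltransferase (1.02 ± 0.23, adjusted p = 0.0262), and Prkab2, a subunit of AMP-activated kinase (0.84 ± 0.20, adjusted p = 0.0367), were the other two. The count of 50 was 6 without KCl 45 min sample 1, 22 without KCl 45 min sample 2 and 10 without KCl 15 min sample 2.

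Set against the same 3 basal samples, KCl 15 min gave 868 DEGs (544 higher and 324 lower), KCl 45 min 92, and KCl 180 min 92 (61 higher and 31 lower). Since the basal samples are shared, these counts are given side by side and not as a test of time. Depth also differed: the libraries held 2601957 and 3361551 counts at 15 min, 2812487 and 2432282 at 45 min, and 1277234 and 1796372 at 180 min. The KCl 180 min samples carried the well letter A and the KCl 15 min and 45 min samples B. The times are those of the labels, and no value here checks them. Over the 73 genes higher at 45 min the median log2 fold change from basal was 1.23 at 15 min, 0.94 at 45 min and 0.47 at 180 min, and the highest of the 3 KCl means was at 15 min in 53 genes, at 45 min in 17 and at 180 min in 3. Over the 19 lower genes the medians were -0.98, -1.06 and -0.68.

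**Figure D4:**
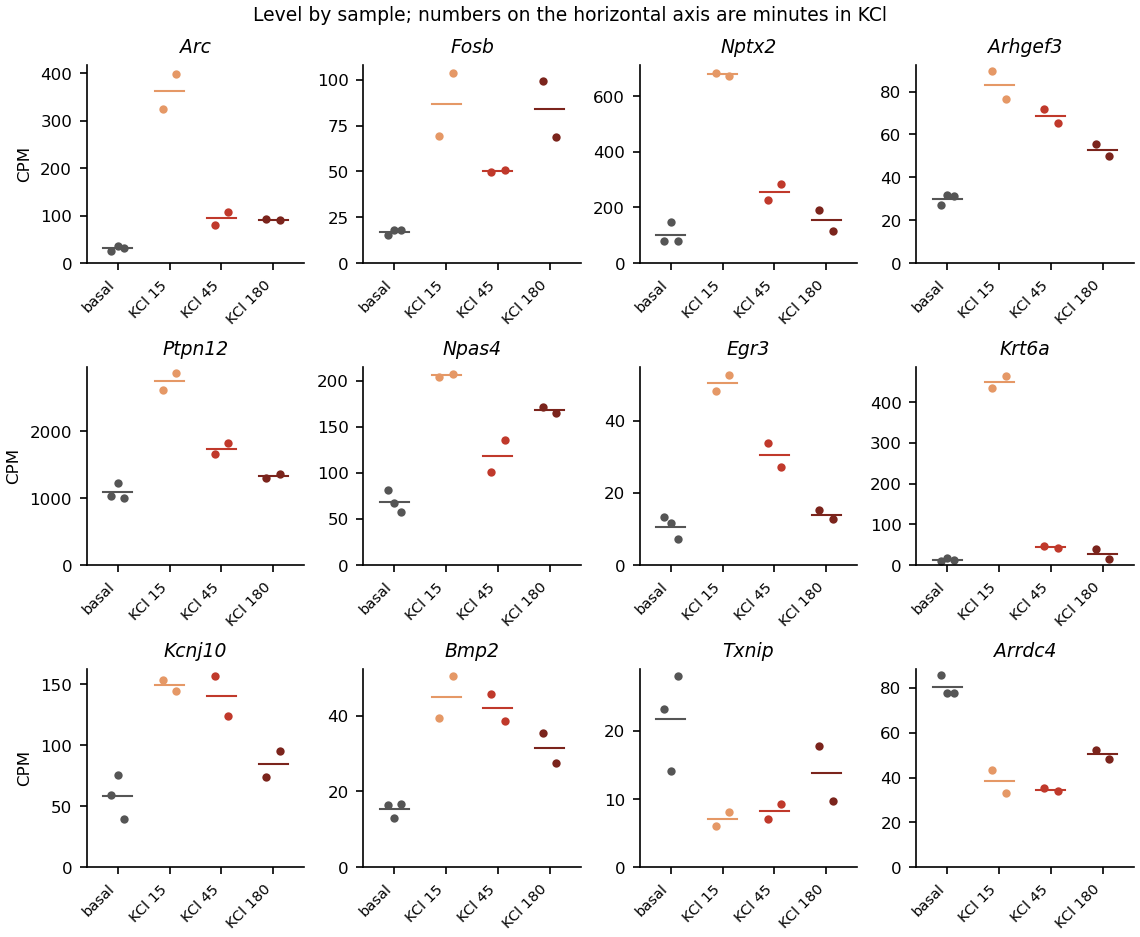
CPM by sample (vertical axes, from 0) for 12 genes in basal samples and after 15, 45 and 180 min of KCl (horizontal axes). Points are samples and bars group means; Arc, Nptx2, Ptpn12 and Krt6a lie highest at 15 min, Kcnj10 and Bmp2 lie at like levels at 15 and 45 min, and Txnip and Arrdc4 lie below the basal samples at 45 min.

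Between 45 and 180 min of KCl, 17 genes differed (0.141%), 11 higher at 180 min (0.0915%) and 6 lower (0.0499%). The pluripotency and stress factor Klf4 measured 5.19 and 2.96 CPM at 45 min and 20.2 and 31.6 CPM at 180 min (2.65 ± 0.46, adjusted p = 0.00214). The chaperone Hspa1b measured 67.8 and 53.4 CPM against 230.1 and 236 CPM (1.94 ± 0.26, adjusted p = 2.70e-05), with counts that are uncertain because Hspa1a is a near-identical copy. The ubiquitin ligase Mylip (1.85 ± 0.30, adjusted p = 7.84e-04) and the nuclear receptor Nr4a2 (1.63 ± 0.32, adjusted p = 0.00884) were the other two of the 4 largest rises. Junb, not called against basal at 45 min, was at 91.2 and 75.2 CPM at 180 min and rose over 45 min (1.29 ± 0.26, adjusted p = 0.0126). Among the falls, Sox10 of the oligodendrocyte lineage measured 489 and 421 CPM against 113 and 188 CPM (-1.58 ± 0.20, adjusted p = 1.11e-05), and Hes5, a target of Notch, 18.9 and 21.2 CPM against 2.42 and 6.31 CPM (-2.09 ± 0.36, adjusted p = 0.00214). Anks1 (-1.20 ± 0.22, adjusted p = 0.00437) and Vash1 (-1.02 ± 0.19, adjusted p = 0.00660) also fell. The 11 oligodendrocyte lineage markers summed to 1099.9 to 1165 CPM at 45 min and 655 to 673 CPM at 180 min, and their part in the fall of Sox10 was not tested. Both KCl 180 min samples carried the well letter A and both KCl 45 min samples B, so time and well letter cannot be told apart. The KCl 180 min libraries were also smaller, at 1277234 and 1796372 counts against 2812487 and 2432282. The count of 17 was 6 without KCl 45 min sample 1, 8 without KCl 45 min sample 2, and 7 without either KCl 180 min sample.

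KCl and Bic were compared at the same time, 45 min. Of the genes tested, 82 differed (0.682%), 22 higher in KCl (0.183%) and 60 lower (0.499%). Many immediate-early genes were lower in KCl than in Bic. Arc measured 81.2 and 108 CPM in KCl and 1096 and 1474 CPM in Bic samples (-3.77 ± 0.19, adjusted p = 1.52e-17), Npas4 101 and 135 CPM against 668 and 766 CPM (-2.60 ± 0.17, adjusted p = 3.06e-14) and Btg2 24.1 and 20.3 CPM against 179 and 194 CPM (-3.06 ± 0.22, adjusted p = 1.12e-12). Ccn1, a matricellular protein induced by SRF, was at 6.30 and 6.35 CPM against 64.6 and 54.1 CPM (-3.22 ± 0.38, adjusted p = 2.98e-07). In each of these genes the lower Bic sample lay above the higher KCl sample by several fold.

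Of 25 inducible transcription factors, 12 were lower in KCl and none was higher, with a median log2 difference of -0.75. They included genes that did not pass the test between KCl 45 min and basal samples: Fos at 261 and 267 CPM in Bic (-1.95 ± 0.22, adjusted p = 1.02e-07), Egr1 at 287 and 271 CPM (-1.73 ± 0.21, adjusted p = 6.61e-07) and Junb at 149 and 169 CPM (-2.24 ± 0.24, adjusted p = 5.27e-08). Of the effectors, 9 of 21 were lower and none higher (median -0.69). Others did not pass the test between these stimuli: Bdnf (-0.40 ± 0.20, adjusted p = 0.532), Homer1 (-0.10 ± 0.15, adjusted p = 0.909), Fosl2 (-0.10 ± 0.19, adjusted p = 0.929), Arhgef3 (-0.15 ± 0.19, adjusted p = 0.872), Ptpn12 (-0.25 ± 0.13, adjusted p = 0.542), Rhcg (0.16 ± 0.29, adjusted p = 0.921) and Kcnj10 (0.10 ± 0.26, adjusted p = 0.954). A p over the threshold does not show that the levels were alike.

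In the other direction, the largest difference was that of Arl5c. Arl5c, a small GTPase, measured 7.45, 8.93 and 6.82 CPM in basal, 12.2 and 15.2 CPM in KCl and 3.06 and 2.88 CPM in Bic samples (2.19 ± 0.40, adjusted p = 0.00178). The non-coding RNA Gm19705 measured 57, 40.9 and 79.98 CPM, 32.6 and 41.5 CPM and 11.8 and 10.6 CPM (1.73 ± 0.35, adjusted p = 0.00720). Ppp1r13l, an inhibitor of p53 (1.30 ± 0.24, adjusted p = 0.00182), and the prostaglandin receptor Ptger3 (1.15 ± 0.29, adjusted p = 0.0474) followed. The astrocyte markers summed to 5207 to 5905 CPM in Bic and 4383 to 4386 CPM in KCl samples, those of the oligodendrocyte lineage to 1389 to 1611 CPM and 1099.9 to 1165 CPM, those of fibroblasts and meninges to 274 to 278 CPM and 168 to 178 CPM, and those of cycling cells to 99.4 to 133 CPM and 66.1 to 66.6 CPM. Neuronal sums were lower in KCl too: the pan-neuronal sum was 5968 to 6102 CPM in Bic and 5549 to 5602 CPM in KCl samples. The inhibitory neuron sum was 6115 to 6319 CPM and 5810 to 5907 CPM. Excitatory neuron sums overlapped, at 1446 to 1668 CPM and 1430 to 1447 CPM. The low microglial sum was 5.65 to 6.05 CPM in Bic and 6.33 to 8.12 CPM in KCl samples. The neurofilament genes Nefl and Nefm were themselves called lower in KCl. The part of these cells in the difference between stimuli was not tested. The count of 82 was 25 without KCl 45 min sample 1, 39 without KCl 45 min sample 2 and 30 without Bic 45 min sample 2.

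**Figure D5:**
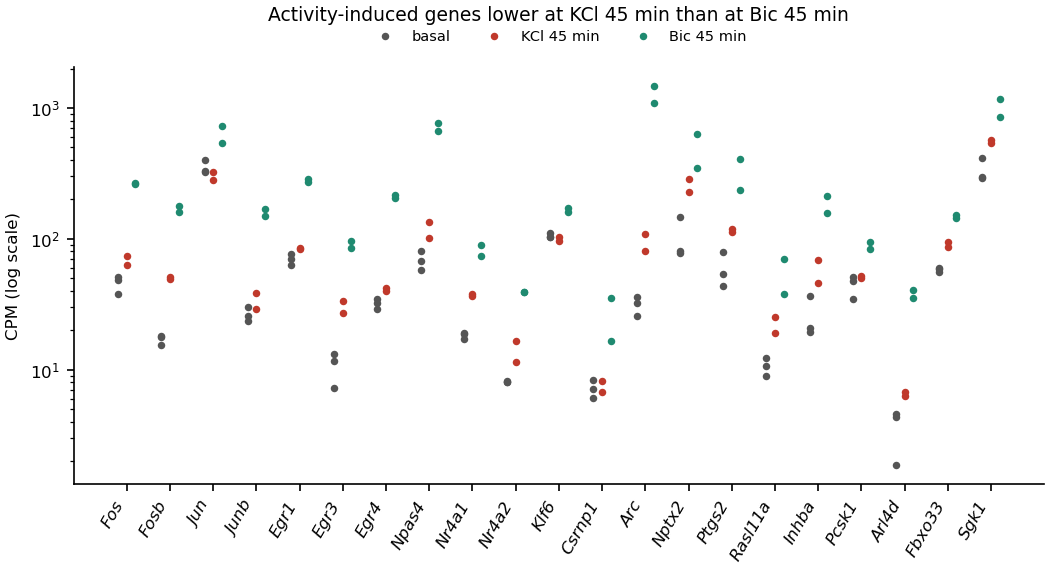
CPM (vertical axis, log scale) of the 12 inducible transcription factors and 9 effectors that were lower at KCl 45 min than at Bic 45 min. Each point is a sample, grey for basal, red for KCl 45 min and green for Bic 45 min; in every gene shown the green points lie above the red points, while for Jun, Junb, Klf6, Csrnp1 and Pcsk1 at least 1 red point lies within or below the range of the grey points.

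The 2 limits of a DEG left genes close by. By fold, Gramd1b (1.53-fold, adjusted p = 0.0358) and Scrg1 (1.53-fold, adjusted p = 0.0139) lay just inside, and Diras2 (1.498-fold, adjusted p = 0.0274) and Slc1a2 just outside; 12 genes passed the adjusted p alone. By adjusted p, Kifc3 and Mpp6 lay just inside at 0.0499, and Ankrd33b (1.65-fold) and Vmac (0.598-fold) just outside at 0.0524.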

How the data were processed

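RNA from primary mouse neurons was measured by 3′-end sequencing (CEL-Seq2). Per the labels and methods, the authors aligned reads to mm10 with STAR and counted them per transcript with ESAT, and deposited counts that were not normalized. Whether molecular identifiers were collapsed is not given in the sources used here, and counting error is the one error that depth covers. Transcripts were given symbols by accession without version (78229 of 96722 matched a RefSeq symbol in GRCm38.p6, and unmatched ones held 19.2% of counts), and the transcript with the most counts stood for its gene. Genes over 5 CPM in at least 2 of the 27 samples were tested in 1 fit with edgeR 4.0.16 (TMM, quasi-likelihood test, a group for each condition), with Benjamini-Hochberg adjustment over all 12027. Errors of fold changes are SE from that fit, taken as the absolute log2 fold change over the square root of the F statistic. R was 4.3.3 and DESeq2 1.42.0. The code was tested on simulated data.

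Named genes were the 12 largest rises and 12 largest falls among DEGs whose average log2 CPM reached 3 and whose groups did not overlap, the 4 largest each way in the other comparisons, up to 6 members of lowest p from each list, and 8 markers of activity. The comparison, the 19 gene lists and the 10 marker lists were chosen with earlier results of these data known. A description by exon number is void, since 74.0% of the higher DEGs had a transcript with exons in the reference, under the share required. The alternatives are in the closing section. The rest of the series was not used here.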

Additional observations from a re-analysis of the deposited data

Results flagged for a closer look

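KCl 45 min differed directly from the neighbouring times and from Bic, by a test of each difference: 50 genes against KCl 15 min, 17 genes between KCl 180 min and KCl 45 min, and 82 genes against Bic 45 min. No group compared here had the 4 samples that a test for a sample far from the others needs.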

How the results depend on the processing

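The count of 92 DEGs at KCl 45 min against basal was 89 by DESeq2, which shared 71 of the genes. In the order KCl 45 min against basal, KCl 45 min against KCl 15 min, KCl 180 min against KCl 45 min, and KCl 45 min against Bic 45 min, the likelihood ratio test gave 141, 103, 44 and 144 genes, and counts thinned to the smallest library 58, 18, 9 and 47. No filter on low counts gave 133, 90, 53 and 140 genes, a fit of only the groups compared 136, 157, 105 and 116, and a fit without the samples that had been in TTX 130, 96, 38 and 138. Counts summed over transcripts gave 32, 8, 14 and 28. Leaving out each sample in turn gave 8 to 108, 6 to 37, 6 to 8, and 25 to 92; where this left a group with 1 sample, that sample was assumed to vary like the other groups. With basal sample 5 as the only basal sample, an alternative chosen after seeing the data, 50 genes were called, 32 of them among the 92. With RLE size factors 95, 50, 17 and 80 genes were called, and with filterByExpr 89, 50, 16 and 82. The cause of these differences was not tested. No named gene that was called in either fit changed sign under any alternative; 610 values of named genes fell below the threshold, 30 rose past it, 2948 kept direction and side, and 15 values of genes called in neither fit changed sign. At KCl 45 min against basal, 5 of the 92 genes were called under all 17 alternatives.

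With the replicate number as a block, 36, 52, 18 and 86 genes were called. Basal sample 5 has the number 5 in its title but 2 in its column header; with the number 2, a block added after seeing the data, 86 genes were called at KCl 45 min against basal, 82 of them among the 92. Deviations from the group mean correlated at -0.05 and 0.02 between KCl 45 min and basal samples 1 and 2. The correlation was -0.07 between KCl 45 min sample 2 and basal sample 5. With 2 KCl samples, the deviations of one mirror those of the other, so these values rest on a single difference. They cannot show whether the numbers pair the samples. Depth limits the low genes: Cxcl10 rested on 2 and 0 counts in the KCl samples.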

Other observations

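The DEGs that follow were picked after their values were seen, and no list or test stands behind their grouping. Orai1, the pore of store-operated calcium channels, measured 45.3, 50.6 and 35.6 CPM in basal and 81.2 and 78.3 CPM in KCl samples (0.86 ± 0.20, adjusted p = 0.0213). Camk2n1, an endogenous inhibitor of CaMKII, was at 1023, 1013 and 1265 CPM against 1930 and 1599 CPM (0.68 ± 0.14, adjusted p = 0.00837), and Itpka, a kinase of inositol trisphosphate in dendritic spines, at 23.5, 25.7 and 28.1 CPM against 56.7 and 41.5 CPM (0.94 ± 0.22, adjusted p = 0.0228). The calcium buffer Calb1 (0.65 ± 0.14, adjusted p = 0.00897), the spine protein Synpo (1.24 ± 0.26, adjusted p = 0.00897), the protocadherin Pcdh8 (0.77 ± 0.19, adjusted p = 0.0355) and the volume-regulated anion channel subunit Lrrc8a (0.68 ± 0.15, adjusted p = 0.0146) also rose. Nnat, the imprinted gene neuronatin and the most abundant of the DEGs in average log2 CPM, measured 2749, 3475 and 2916 CPM against 5043 and 4671 CPM (0.67 ± 0.12, adjusted p = 0.00191), and was called in 16 of the 17 alternatives. The others were called less often: Orai1 and Pcdh8 in 9 each, Itpka and Synpo in 10 each, Lrrc8a in 12, Camk2n1 in 13 and Calb1 in 14. Pcdh8 was lost whichever sample was left out.

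Among regulators of transcription and chromatin, Hivep3 measured 12.3, 21.6 and 18.6 CPM against 43.4 and 47 CPM (1.39 ± 0.26, adjusted p = 0.00339) and the SRF partner Elk3 7.16, 9.68 and 10.2 CPM against 26.3 and 19.9 CPM (1.37 ± 0.27, adjusted p = 0.00525). Jarid2, of the Polycomb repressive complex (0.73 ± 0.16, adjusted p = 0.0163), the histone methyltransferase Dot1l (0.71 ± 0.18, adjusted p = 0.0448), the remodeller Chd9 (0.83 ± 0.20, adjusted p = 0.0288) and Npas3 (0.78 ± 0.17, adjusted p = 0.0104) rose by less. Among the lower DEGs, the haem oxygenase Hmox1 measured 42.4, 43.2 and 47.4 CPM against 29.3 and 20.7 CPM (-0.81 ± 0.20, adjusted p = 0.0318) and the glutathione transferase Gsto1 66.2, 69.96 and 67.5 CPM against 37.4 and 41.1 CPM (-0.79 ± 0.16, adjusted p = 0.00802). The non-coding RNAs Miat (-0.67 ± 0.17, adjusted p = 0.0355) and Snhg1 (-0.63 ± 0.14, adjusted p = 0.0215) fell, and Snhg1 was higher again at 180 min than at 45 min (0.82 ± 0.16, adjusted p = 0.00723). Chd9, Hmox1 and Miat were each called in 9 of the 17 alternatives, Dot1l and Snhg1 in 10, and Jarid2 in 12. Elk3 was called in 13, and Hivep3, Npas3 and Gsto1 in 14 each. Chd9 was lost whichever sample was left out.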
